A study of Homo sapiens with 12 samples.

Results

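Divergent noncoding transcripts were followed in polyadenylated RNA from HEK293 cells depleted of SAFB proteins. A divergent transcript carries the symbol of a neighbouring gene with the ending -DT. The members were chosen by 3 rules: a symbol ending in -DT, the lncRNA biotype in GENCODE v44, and a mean of at least 1 CPM (the read count scaled to the library total) across the 12 libraries. These rules selected 141 of the 589 -DT lncRNA genes in that annotation and of the 58780 gene IDs in the count files. Of the 589 genes, 583 were found in the files, 442 of them below the limit, and 496 had enough counts to be tested. The level used for the choice was the mean over all libraries and not a difference between groups. VPS33B-DT (1.01 CPM) and USP27X-DT (1.04 CPM) stood just inside the limit, and SAP30-DT (0.994 CPM) and DYNC1LI2-DT (0.975 CPM) just outside it. In 123 of the 141 the mean was at least 1 CPM in each of the 4 groups, and AJUBA-DT was the member whose control mean was under 1 CPM. AJUBA-DT averaged over 1 CPM in triple KD and SAFB1 KD only and passed the limit through these groups. Its rises are therefore not independent of the choice. Each of the 141 had a protein-coding gene under the symbol before the hyphen, referred to here as its coding partner.

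The libraries came from Flp-In T-REx HEK293 cells, a human embryonic kidney line with an engineered integration site and a tetracycline repressor, with 3 libraries per group. In triple KD the cells received siRNAs against SAFB (encoding SAFB1), SAFB2 and SLTM together. SAFB1 KD and SLTM KD cells received the siRNA against SAFB or SLTM alone, made up with a negative control to an equal siRNA amount, and control cells received control siRNA. Each target was hit with 1 siRNA design, the cells were taken on the second day, and SAFB2 KD alone was not analysed here. The study's methods describe siRNA transfection in plate wells with a set number of cells per replicate, and whether the replicates of a group differed in passage or day is not given in the sources used here. The p-values measure the spread between these libraries.

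Promoters of many mammalian coding genes start RNA polymerase II in both directions, and the upstream product is a divergent or promoter-upstream transcript. Most such RNAs meet early polyadenylation signals and are handed by the NEXT or PAXT adaptors to the nuclear exosome, an RNA-degrading complex. PAXT acts on RNAs that carry a poly(A) tail, so that many such transcripts are polyadenylated and short-lived. SAFB1, SAFB2 and SLTM are nuclear RNA-binding proteins with an RNA recognition motif and a preference for purine-rich RNA. In a bulk preparation, fewer cells that make an RNA and less of that RNA per cell cannot be told apart.

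The shared promoters of 5 pairs are shown as examples, picked by hand and not by rank of change. Of their divergent transcripts 2 rose in triple KD and the others fell in it. Among those that fell, NUP50-DT was the member with the largest fall in SAFB1 KD. Each run holds the 250 bases before the RefSeq start of the coding partner (GRCh38.p14), written 5′ to 3′ on the coding strand. Capitals mark bases that lie inside the GENCODE v44 span of the divergent gene, which is transcribed from the other strand, and lower case marks the stretch between the divergent start and the coding start. The windows lie at chr14:22982552-22982801 (minus strand), chr19:58278705-58278954 (plus), chr2:74833877-74834126 (plus), chr5:36876519-36876768 (plus) and chr22:45163675-45163924 (plus).
AJUBA-DT and AJUBA: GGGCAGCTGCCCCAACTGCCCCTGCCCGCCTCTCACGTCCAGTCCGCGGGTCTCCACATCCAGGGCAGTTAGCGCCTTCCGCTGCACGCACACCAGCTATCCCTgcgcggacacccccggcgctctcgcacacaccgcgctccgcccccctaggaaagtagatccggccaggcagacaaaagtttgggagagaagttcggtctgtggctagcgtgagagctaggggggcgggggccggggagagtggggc
ZNF8-DT and ZNF8: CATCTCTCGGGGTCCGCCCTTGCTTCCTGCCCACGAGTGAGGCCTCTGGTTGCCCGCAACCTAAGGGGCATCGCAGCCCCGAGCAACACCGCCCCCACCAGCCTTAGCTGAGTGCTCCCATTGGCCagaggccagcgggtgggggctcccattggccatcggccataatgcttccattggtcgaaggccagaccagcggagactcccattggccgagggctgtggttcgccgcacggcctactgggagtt
HK2-DT and HK2: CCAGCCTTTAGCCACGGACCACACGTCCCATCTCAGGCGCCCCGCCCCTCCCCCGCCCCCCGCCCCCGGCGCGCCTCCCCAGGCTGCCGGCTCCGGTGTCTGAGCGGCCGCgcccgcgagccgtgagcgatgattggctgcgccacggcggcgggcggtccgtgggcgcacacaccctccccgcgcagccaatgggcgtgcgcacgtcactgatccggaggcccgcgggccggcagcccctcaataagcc
NIPBL-DT and NIPBL: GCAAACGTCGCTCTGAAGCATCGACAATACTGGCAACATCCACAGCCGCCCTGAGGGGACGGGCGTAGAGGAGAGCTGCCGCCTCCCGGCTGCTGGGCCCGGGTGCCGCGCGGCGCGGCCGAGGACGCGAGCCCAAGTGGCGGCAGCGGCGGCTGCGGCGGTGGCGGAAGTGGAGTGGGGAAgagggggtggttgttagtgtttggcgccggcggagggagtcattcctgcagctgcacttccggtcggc
NUP50-DT and NUP50: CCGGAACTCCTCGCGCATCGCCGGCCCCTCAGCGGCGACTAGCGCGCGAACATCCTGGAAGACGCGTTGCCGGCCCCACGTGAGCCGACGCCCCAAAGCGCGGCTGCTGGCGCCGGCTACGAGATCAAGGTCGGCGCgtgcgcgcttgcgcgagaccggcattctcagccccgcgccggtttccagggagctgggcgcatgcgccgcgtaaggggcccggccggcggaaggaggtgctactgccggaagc

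The lower-case stretch between both starts was 146 bases long for AJUBA, 124 for ZNF8, 139 for HK2, 68 for NIPBL and 113 for NUP50. GC content of these runs was 68.4%, 65.6%, 76.8%, 70.0% and 72.8% in the same order, with 20, 15, 34, 28 and 40 CG pairs. The observed-to-expected CpG ratios of the runs were 0.685, 0.561, 0.956, 0.952 and 1.21. A sequence was taken as CpG-rich at over 50% GC with such a ratio over 0.6, which the ZNF8 run did not reach. CpG-rich sequence was the rule: of the 113 members with a RefSeq window (250 bases before the start to 50 after it), 107 (94.7%) had it. The share was 95% for 120 partner windows, 69.9% for 415 other lncRNA genes averaging 1 CPM or more, 83.2% for 10096 protein-coding genes at that level and 46.8% for all 27305 windows, 1 per symbol. The core promoter word TATAAA, searched on both strands, occurred in 4 member windows (3.54%, against 11.9% of all windows). Its share was 6.67% in partner windows and 5.15% in those of protein-coding genes averaging 1 CPM or more. The 5′ splice site word GTAAGT occurred in 1 member window (0.885%, against 6.19% of all windows). Partner windows held it at a like share (0.833%), and those protein-coding genes at 3.41%.

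The divergent genes lay close to their partners. In 116 of the 141 pairs the starts were within 500 bases of each other and in 130 within 1000, and the median distance from the divergent to the coding start was 77 bases (quartiles -94 and 139, negative where the genes overlap). The genes did not overlap in 99 pairs and overlapped on opposite strands in 42. In a few pairs, such as those of ZNF584-DT, GARS1-DT, CHKB-DT and EIF2AK3-DT, the annotated starts were over 5000 bases apart, and the distance reached -173373 bases. ZNF584-DT lies wholly inside ZNF584 on the other strand, so the name -DT does not show a shared promoter in such pairs. The counts were taken by strand, so that reads of both genes are separated in principle. A member had a median of 3 exon blocks (44 had 1) and 3078 exonic bases. The other 926 lncRNA genes averaging 1 CPM or more had a median of 2 exon blocks.

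Levels between genes were compared per length, as CPM per kb of GENCODE v44 exons (RPKM). In control cells the median member stood at 0.943 RPKM and the median partner at 7.10 RPKM, and the median of the 141 pairwise ratios was 0.165. The member was above its partner in 17 pairs and under 10% of it in 56. The highest ratio was that of ZNF132-DT, at 0.415 ± 0.043 RPKM (SD, n = 3) against 0.0102 RPKM for the nearly silent zinc finger gene ZNF132. The lowest was that of TMED2-DT, at 0.187 RPKM against 88.9 RPKM for TMED2, a cargo receptor of the early secretory pathway, named after its values were seen. Lengths were read from a later annotation than the one used for counting, so a gene whose model changed is misplaced on this scale.

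**Figure D1:**
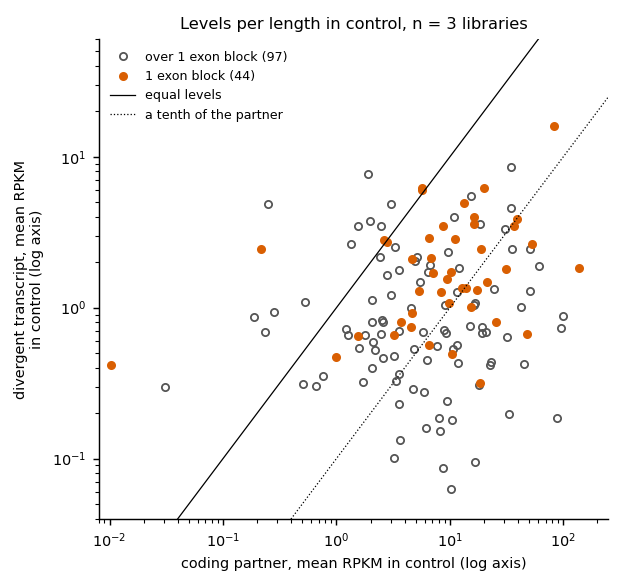
Mean RPKM of 141 divergent transcripts (vertical, log axis) against that of their coding partners (horizontal, log axis) in the 3 control libraries, with members of 1 exon block (44) filled. Most points lie below the line of equal levels, with 17 above it and 56 under the dotted line at 10% of the partner.

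Among the most abundant members were NIPBL-DT, beside the cohesin loader gene NIPBL, ZNF584-DT and CTBP1-DT, beside a transcriptional corepressor gene. Their control means were 38.1 ± 1.66, 26.1 ± 0.137 and 20.1 ± 0.476 CPM (SD, n = 3). Among all 141 members 12 exceeded 10 CPM and 54 were under 2 CPM. AJUBA-DT, the member with the largest change, had 28 to 55 counts in the control libraries, which limits the precision of its fold change.

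Library totals were 57001123 to 69495905 counts in triple KD, 56856228 to 67842955 counts in SAFB1 KD and 58070400 to 62227480 counts in SLTM KD, against 62104421 to 75533510 in control. SAFB was at 38.2 CPM in triple KD and 45.3 CPM in SAFB1 KD, against 232 CPM in control, and SLTM was at 25.01 CPM in triple KD and 20.5 CPM in SLTM KD, against 116 CPM. SAFB2 was at 29.1 CPM in triple KD but at 209 CPM in SAFB1 KD, against 126 CPM in control. All 8 HEK293 markers were above 1 CPM, as were 1 of 5 colon, 1 of 5 squamous, 3 of 5 fibroblast and 0 of 5 leukocyte markers, and the HEK293 markers summed to 1622 to 1651 CPM in triple KD and 1717 to 1746 CPM in control. The fibroblast markers summed to 16.2 to 16.8 CPM in triple KD and 16.4 to 17.5 CPM in control, and the leukocyte markers to 0.518 to 0.737 CPM in triple KD and 0.547 to 0.821 CPM in control. Mitochondrially encoded counts made up 4.35% ± 0.212 of the total in triple KD, 3.53% ± 0.138 of it in SAFB1 KD and 4.03% ± 0.191 of it in SLTM KD, against 3.49% ± 0.159 in control (SD, n = 3), and their part in the results was not tested.

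The first comparison asked how divergent transcripts stood when all 3 proteins were depleted. In triple KD 51 of the 141 members fell and 21 rose against control, at an adjusted p under 0.05 in edgeR's quasi-likelihood test. Over all 26688 genes tested 20.9% fell and 19.4% rose. Among genes above the same limit the shares are larger. Of the 13989 genes averaging 1 CPM or more 35.2% fell and 30.1% rose. Of the 926 other lncRNA genes at that level, meaning above that limit, 33.9% fell and 24.8% rose. The median level was 2.49 CPM for the members, 2.61 CPM for the other lncRNA genes and 35.6 CPM for the 12343 protein-coding genes above the limit. The 13989 genes are thus not matched to the members in level, and the effect of this on the shares was not tested. The members' share of falls (36.2%) was near that of both sets, and their share of rises (14.9%) below it. The median log2 fold change was -0.13 over the members, -0.08 over the other lncRNA genes at that level, -0.02 over all genes at that level and -0.00436 over all genes tested. Called changes were mostly modest, with 3 of 72 beyond 1 on the log2 scale.

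**Figure D2:**
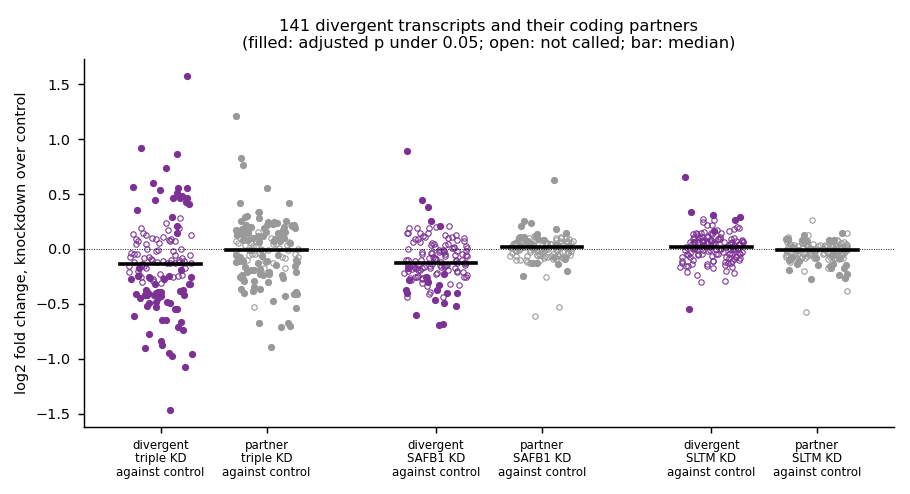
Log2 fold change of each of the 141 divergent transcripts and of their coding partners (vertical) in triple KD, SAFB1 KD and SLTM KD, each over control, with called genes filled and the median as a bar. The member medians are -0.13, -0.12 and 0.02, and those of the partners -0.00714, 0.02 and -0.01.

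AJUBA-DT, a spliced RNA at chr14:22982698-22999078 that leaves the promoter of the LIM-domain scaffold gene AJUBA, rose most. It was at 1.72, 1.69 and 1.752 CPM in triple KD, against 0.623, 0.739 and 0.371 CPM in control. All triple KD libraries lay above all control libraries, with a log2 fold change of 1.58 ± 0.184 (SE, adjusted p = 5.75e-11). ZNF8-DT (chr19:58257270-58278830), beside a KRAB zinc finger gene, was at 4.395, 4.0996 and 4.67 CPM in triple KD, against 2.28, 2.51 and 2.17 CPM in control. The groups did not overlap here either, and the rise was 0.92 ± 0.103 on the log2 scale (SE, adjusted p = 2.05e-11). Members named for a rise or fall against control were picked from called members without overlap, so its absence follows from that choice. USP46-DT, next to a deubiquitinase gene, was at 1.98, 1.85 and 1.86 CPM in triple KD, against 1.07, 0.994 and 1.06 CPM in control, a rise of 0.86 ± 0.143 (adjusted p = 6.78e-07). The other named members that rose were CAMSAP1-DT (0.74), IRF2-DT (0.60), TMEM167B-DT (0.57), GARS1-DT (0.56) and MIF4GD-DT (0.55), which stand beside genes for a microtubule minus-end protein, an interferon regulatory factor, a transmembrane protein, glycyl-tRNA synthetase and a factor in histone mRNA translation.

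ZNF132-DT (chr19:58440448-58445849), an unspliced model of 5402 bases, fell most. It was at 0.788, 0.967 and 0.663 CPM in triple KD, against 1.96, 2.42 and 2.33 CPM in control, a log2 fold change of -1.47 ± 0.146 (SE, adjusted p = 2.62e-13). The highest triple KD library was thus well below the lowest control library. DPY19L3-DT, beside a C-mannosyltransferase gene, was at 1.63, 1.72 and 2.18 CPM in triple KD, against 4.18, 3.81 and 3.67 CPM in control (log2 fold change -1.07 ± 0.108, adjusted p = 5.67e-13). ARNT2-DT, beside a bHLH-PAS transcription factor gene, was at 1.93, 1.99 and 1.91 CPM in triple KD, against 4.29, 3.46 and 3.77 CPM in control (-0.98 ± 0.101, adjusted p = 1.30e-12). Both showed no overlap between the groups. HK2-DT (chr2:74832655-74833987), beside the gene of a glycolytic hexokinase, was at 3.55, 3.46 and 3.77 CPM in triple KD, against 6.10, 6.81 and 6.86 CPM in control (-0.88 ± 0.0807, adjusted p = 1.67e-14). The other named members that fell were DPP3-DT (-0.95), KCTD13-DT (-0.95), FOXF2-DT (-0.90) and TMCC1-DT (-0.84). The libraries of both groups did not overlap for 70 of the 72 called members (97.2%), against 95.9% of all called genes and 97.1% of those averaging 1 CPM or more.

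Of the 10 most abundant members most were called in triple KD, where 35.2% of genes averaging 1 CPM or more fell and 30.1% rose. The share among genes at the higher level of these 10 was not counted. NIPBL-DT (chr5:36864425-36876700) was at 27.6, 30.0 and 27.2 CPM in triple KD, against 39.8, 38.05 and 36.5 CPM in control, with no overlap and a log2 fold change of -0.43 ± 0.0405 (SE, adjusted p = 4.57e-14). BOLA3-DT (-0.48), SLC12A2-DT (-0.27), MCPH1-DT (-0.27), C2orf74-DT (-0.26) and PAXIP1-DT (-0.19) also fell, whereas CTBP1-DT (0.41) and MVP-DT (0.45) rose. ZNF584-DT was not called, at 27.3 ± 1.29 CPM in triple KD and 26.1 ± 0.137 CPM in control (SD, n = 3, adjusted p = 0.174).

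Members of 1 exon block and spliced members were counted separately. Of the 44 members of 1 exon block 23 fell and 5 rose in triple KD, with a median log2 fold change of -0.24. Of the 97 with more blocks 28 fell and 16 rose, with a median of -0.12. Over genes of any exon number averaging 1 CPM or more 35.2% fell and 30.1% rose, and over other lncRNA genes at that level 33.9% and 24.8%. The same split by exon blocks was not counted among other genes. These counts are a description and their difference was not tested.

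**Figure D3:**
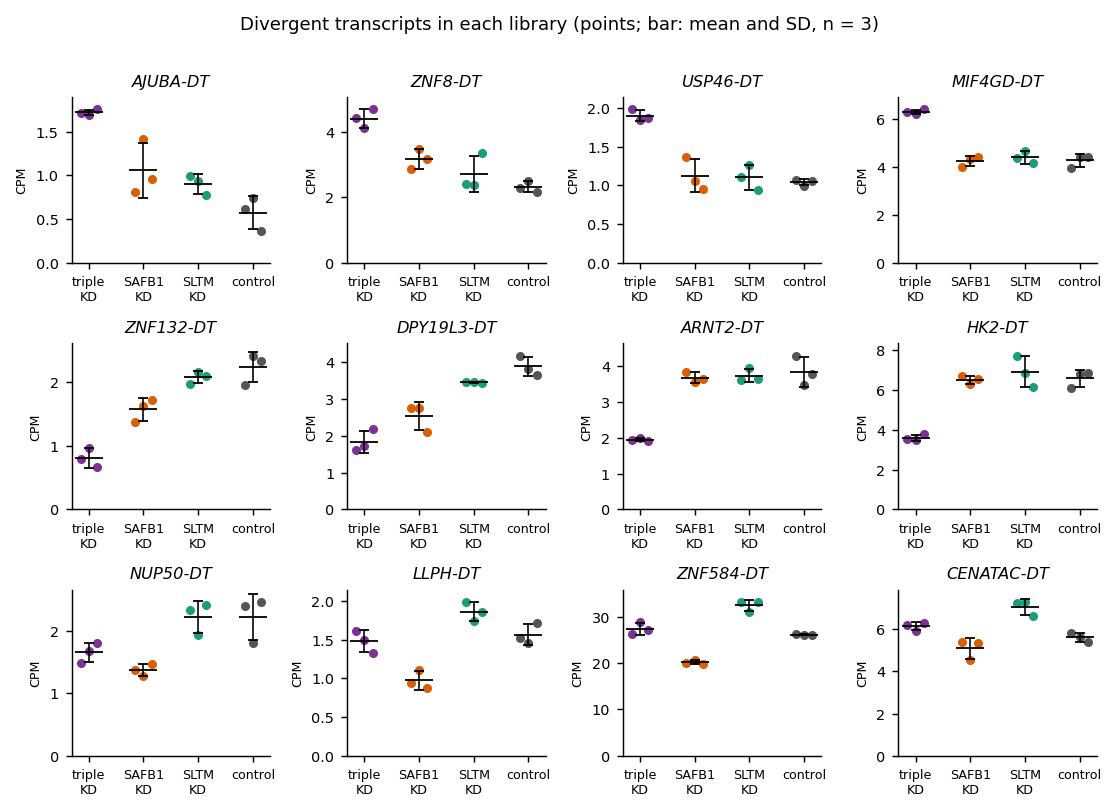
CPM of 12 divergent transcripts (vertical) in each library of triple KD, SAFB1 KD, SLTM KD and control, with the mean and SD (n = 3) as bars. The top row holds members that rose in triple KD, the middle row members that fell in it, and the bottom row members that stood apart in SAFB1 KD or SLTM KD, such as LLPH-DT at 0.869 to 1.11 CPM in SAFB1 KD.

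The second comparison asked what loss of SAFB1 alone did. In SAFB1 KD 17 members fell and 5 rose against control, where 4.62% of all genes tested fell and 5.04% rose. The members' share of falls was 12.1% and that of rises 3.55%. Other lncRNA genes averaging 1 CPM or more gave 12% and 3.56%, and all genes at that level 8.11% and 9.24%. The members' shares were near those of other lncRNA genes. The median log2 fold change over the members was -0.12, against -0.08 over the other lncRNA genes and 0.00797 over all genes at that level. Summed over the 141 members, the level was 584 ± 8.28 CPM in SAFB1 KD and 581 ± 3.30 CPM in triple KD, against 624 ± 4.33 CPM in control (SD, n = 3).

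NUP50-DT (chr22:45133020-45163811), beside a nucleoporin gene, fell most in SAFB1 KD. It was at 1.38, 1.28 and 1.47 CPM in SAFB1 KD, against 2.39, 1.80 and 2.46 CPM in control, a log2 fold change of -0.69 ± 0.134 (SE, adjusted p = 0.000149). LLPH-DT (chr12:66130751-66134449), which starts 1 base from its partner LLPH, was at 0.935, 1.11 and 0.869 CPM in SAFB1 KD, against 1.52, 1.46 and 1.72 CPM in control (-0.68 ± 0.147, adjusted p = 0.000687). Neither overlapped between the groups. DPY19L3-DT (-0.60), ZNF132-DT (-0.52), ZNF691-DT (-0.49), DPP3-DT (-0.46), DPH5-DT (-0.40) and INSIG1-DT (-0.40) fell as well. AJUBA-DT was at 0.812, 1.41 and 0.958 CPM in SAFB1 KD, above all 3 control libraries, and rose by 0.89 ± 0.200 on the log2 scale (adjusted p = 0.00120). ZNF8-DT (0.45), CAMSAP1-DT (0.38), COX10-DT (0.26) and ZNF778-DT (0.21) made up the rest of the rises.

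Several of these calls sat near the threshold and were lost when a library was left out, mostly with a fold change of similar size. AJUBA-DT moved most: its log2 fold change was 0.61 without SAFB1 KD replicate 2 (adjusted p = 0.0954) and 0.63 without control replicate 3 (0.0534), within adjusted p values of 7.41e-05 to 0.0954 over its alternatives. ZNF8-DT was at 0.37 without SAFB1 KD replicate 2 (adjusted p = 0.0601), and INSIG1-DT at -0.34 without that library (0.119) and -0.38 without control replicate 3 (0.0690). CAMSAP1-DT was not called without SAFB1 KD replicates 1 (0.34) or 3 (0.36) or control replicates 1 (0.30) or 3 (0.38), with an adjusted p of 0.0551 to 0.134. DPP3-DT was not called without SAFB1 KD replicate 1 (-0.42) or control replicates 1 (-0.42) or 2 (-0.45), with an adjusted p of 0.0595 to 0.0774. ZNF778-DT lost its call under 8 of its alternatives, with log2 fold changes of 0.16 to 0.21 and an adjusted p of up to 0.214. The count of rises was 5 with all libraries, 3 without any 1 of the SAFB1 KD libraries or control replicate 1, and 2 without control replicate 3.

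The third comparison asked the same of SLTM. In SLTM KD 6 members rose and 1 fell against control, where 3.6% of all genes tested rose and 5.65% fell. Of all genes averaging 1 CPM or more 6.2% rose and 10.4% fell. The corresponding shares were 4.26% and 0.709% for the members and 8.96% and 3.67% for the other lncRNA genes averaging 1 CPM or more, which leaned the same way. The median log2 fold change of the members was 0.02, and their summed level was 642 ± 2.83 CPM in SLTM KD, against 624 ± 4.33 CPM in control. CENATAC-DT, beside a gene for a minor spliceosome protein, was at 7.25, 7.29 and 6.62 CPM in SLTM KD, against 5.81, 5.63 and 5.39 CPM in control, with no overlap (0.33 ± 0.0719, adjusted p = 0.000678). ZNF584-DT (chr19:58404238-58408484) was at 33.1, 31.0 and 33.2 CPM in SLTM KD, against 26.3, 26.0 and 26.0 CPM in control (0.31 ± 0.0387, adjusted p = 9.96e-09). AJUBA-DT (0.65), TMEM167B-DT (0.29), MVP-DT (0.26) and CTBP1-DT (0.17) rose too, and CDC37L1-DT, beside a gene for an HSP90 co-chaperone relative, fell (-0.55). AJUBA-DT was at 0.995, 0.939 and 0.774 CPM in SLTM KD (adjusted p = 0.0348) and was not called in 6 of its 19 alternatives, at log2 fold changes of 0.39 to 0.71. The lowest was that without control replicate 3 (adjusted p = 0.342). CDC37L1-DT (adjusted p = 0.0259) lost its call in 6 of 19 as well, at -0.57 to -0.41, the last without control replicate 3 (adjusted p = 0.217). Without that library TMEM167B-DT (0.26, adjusted p = 0.1004) and CTBP1-DT (0.14, adjusted p = 0.0510) were not called either and 3 members rose, and TMEM167B-DT was not called without SLTM KD replicate 2 (0.20, adjusted p = 0.230).

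Over the comparisons against control, which share the control libraries, 76 members (53.9%) were called at least once and 65 in none, where 43.5% of all genes tested, 70.6% of genes averaging 1 CPM or more and 63.2% of the other lncRNA genes at that level were called at least once. AJUBA-DT was the member that rose in all 3, at 1.72 ± 0.0315 CPM in triple KD, 1.06 ± 0.312 CPM in SAFB1 KD, 0.902 ± 0.115 CPM in SLTM KD and 0.577 ± 0.188 CPM in control. It made up 0.709% of the members, near the 0.723% of all genes tested that rose in all 3. Of genes averaging 1 CPM or more 1.32% did so, and of the other lncRNA genes at that level 0.972%. A further 4 rose in triple and SAFB1 KD, 3 rose in triple and SLTM KD, 13 fell in triple and SAFB1 KD, and 37 fell in triple KD and were called in neither single KD. The falls shared by triple and SAFB1 KD made up 9.22% of the members and 7.34% of the other lncRNA genes averaging 1 CPM or more, and the falls called in triple KD alone 26.2% and 23% of these sets. Of all genes averaging 1 CPM or more 5.07% showed the shared fall and 21.9% the fall in triple KD alone. Of all genes tested 2.84% and 13.7% did. The rises shared by triple and SAFB1 KD made up 2.84% of the members and 2.05% of the other lncRNA genes, and those shared by triple and SLTM KD 2.13% and 6.05%. Of all genes averaging 1 CPM or more 5.6% rose in triple and SAFB1 KD and 3.1% in triple and SLTM KD. Of all genes tested 3.07% and 1.85% did. BAIAP2-DT rose in triple KD (0.15, adjusted p = 0.0266) and fell in SAFB1 KD (-0.18, adjusted p = 0.0362), chosen here after its values were seen.

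The KD groups were also compared with each other. Between triple KD and SAFB1 KD 26 members were lower and 24 higher in triple KD, where 18.6% and 16.2% of all genes tested were. Among genes averaging 1 CPM or more 33% were lower and 25.1% higher, and among the other lncRNA genes at that level 19% and 24.5%. The members' shares were 18.4% and 17%, the share lower being near that of the other lncRNA genes. Against SLTM KD 54 were lower and 20 higher in triple KD, where 18.8% and 17.5% of all genes were. The members' shares were 38.3% lower and 14.2% higher, against 31.8% and 28.7% of genes averaging 1 CPM or more and 32.3% and 19.4% of the other lncRNA genes at that level. In SAFB1 KD 24 members were lower and 2 higher than in SLTM KD, where 6.78% and 9.27% of all genes were. Other lncRNA genes averaging 1 CPM or more leaned the same way in this last contrast, with 20.8% lower and 3.78% higher, against 17% and 1.42% of the members.

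ZNF584-DT, which lies inside ZNF584 on the other strand, showed the clearest split between the single KDs. It was at 19.9, 20.7 and 19.8 CPM in SAFB1 KD, against 33.1, 31.0 and 33.2 CPM in SLTM KD, a log2 fold change of -0.69 (adjusted p = 3.20e-21). In triple KD it stood at 26.2, 28.8 and 27.0 CPM, between the single KDs and beside the control values of 26.0 to 26.3 CPM, and above SAFB1 KD by 0.44 (adjusted p = 4.47e-14). Its level fell by 0.37 in SAFB1 KD against control (adjusted p = 2.01e-10). LLPH-DT was likewise higher in triple KD than in SAFB1 KD by 0.59 (adjusted p = 0.00104), at 1.61, 1.501 and 1.33 CPM in triple KD. For NUP50-DT (0.27, adjusted p = 0.142) and ZNF691-DT (0.26, adjusted p = 0.120) the same difference was not called. CTBP1-DT was at 26.7 ± 0.873 CPM in triple KD, 18.7 ± 0.545 CPM in SAFB1 KD and 22.5 ± 0.497 CPM in SLTM KD, against 20.1 ± 0.476 CPM in control (SD, n = 3).

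Coding partners were then set beside their divergent transcripts. In triple KD 49 of the 141 partners rose, 48 fell and 44 were not called. The shares that rose (34.8%) and fell (34%) were near those of protein-coding genes averaging 1 CPM or more (30.9% and 36.2%). Of the 51 members that fell, 18 had a partner that fell, 15 a partner that rose and 18 a partner that was not called. Of the 21 that rose, 9 had a partner that rose, 6 a partner that fell and 6 a partner not called. The pairs that rose while the partner fell were AJUBA-DT, BAIAP2-DT, MIF4GD-DT, USP46-DT, ZNF582-DT and ZNF778-DT. The pairs with a member that fell while the partner rose included NIPBL-DT, PAXIP1-DT, TMCC1-DT, INSIG1-DT and FOXF2-DT. In SAFB1 KD 16 partners (11.3%) rose and 7 (4.96%) fell, where 9.85% and 7.96% of protein-coding genes averaging 1 CPM or more did. Of the 17 members that fell 14 had a partner that was not called, a share near the 118 of all 141 partners not called. Without SAFB1 KD replicate 2 or control replicates 2 or 3, 9 partners rose, and without SLTM KD replicate 3, 11 fell.

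**Figure D4:**
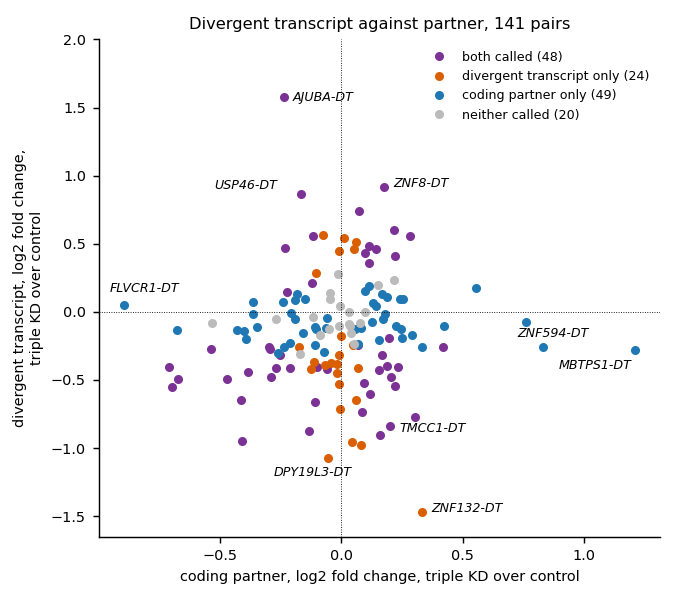
Log2 fold change of each divergent transcript (vertical) against that of its coding partner (horizontal) in triple KD over control for 141 pairs, coloured by which gene was called. In 48 pairs both genes were called, in 24 the divergent transcript alone, in 49 the partner alone and in 20 neither.

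The level of each member relative to its partner was tested in a limma fit over 2181 head-to-head pairs of a noncoding and a coding gene, in which library size cancels. In triple KD the ratio rose in 31 and fell in 41 of the 141 member pairs, where 13.3% and 11.8% of all pairs did. In the 434 other pairs whose noncoding gene had a mean of at least 1 CPM the ratio rose in 26.5% and fell in 30.6%, against 22.0% and 29.1% of the member pairs. In SAFB1 KD 2 ratios rose and 14 fell, where 0.413% and 2.75% of all pairs did. These are 1.42% and 9.93% of the member pairs, near the 1.15% and 8.06% of the 434 other pairs. In SLTM KD 3 rose and 1 fell, where 2.2% and 0.229% of all pairs did, so that 2.13% of the member pairs rose, against 7.37% of the 434 other pairs.

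AJUBA-DT had the largest rise in ratio. Per length it stood at 68.4%, 63.3% and 69.6% of AJUBA in triple KD, against 21.0%, 24.5% and 12.04% in control, a log2 ratio change of 1.86 ± 0.204 (SE, adjusted p = 1.11e-09). USP46-DT stood at 45.9%, 41.1% and 46.5% of USP46 in triple KD, against 22.3%, 20.2% and 22.7% in control (1.03 ± 0.159, adjusted p = 1.95e-06). In both pairs the groups did not overlap, and the partner fell slightly (AJUBA -0.24, USP46 -0.17). FLVCR1-DT was different in kind, since its own level was 3.02 ± 0.171 CPM in triple KD and 2.91 ± 0.511 CPM in control, while FLVCR1, encoding a haem and choline transporter, fell to 31.9 ± 1.06 CPM in triple KD, against 59.2 ± 0.399 CPM in control. The ratio rose by 0.96 ± 0.118 (adjusted p = 1.63e-08). ZNF8-DT (0.74) and ZNF582-DT (0.71) were next.

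The largest fall in ratio was that of MBTPS1-DT, and there the partner moved. MBTPS1, encoding the site-1 protease that activates sterol regulators, was at 207 ± 4.97 CPM in triple KD and 89.4 ± 1.09 CPM in control (log2 fold change 1.21). MBTPS1-DT (chr16:84117030-84117571) was at 1.56 ± 0.252 CPM in triple KD and 1.88 ± 0.0286 CPM in control (adjusted p = 0.0860). Per length it made up 15.9%, 11.4% and 15.7% of its partner in triple KD, against 39.7%, 39.9% and 39.7% in control, with no overlap (log2 ratio change -1.49 ± 0.141, adjusted p = 3.06e-11). For ZNF594-DT (-1.09) too the member was not called (-0.26), with ZNF594 at 33.5 ± 1.33 CPM in triple KD and 29.3 ± 0.915 CPM in SAFB1 KD, against 18.9 ± 0.315 CPM in control. In FOXF2-DT (-1.11), INSIG1-DT (-1.08) and ARNT2-DT (-1.06) the member itself fell. INSIG1-DT stood at 3.20%, 3.48% and 3.09% of INSIG1, an endoplasmic reticulum protein that restrains sterol synthesis, in triple KD, against 6.38%, 7.23% and 7.04% in control.

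**Figure D5:**
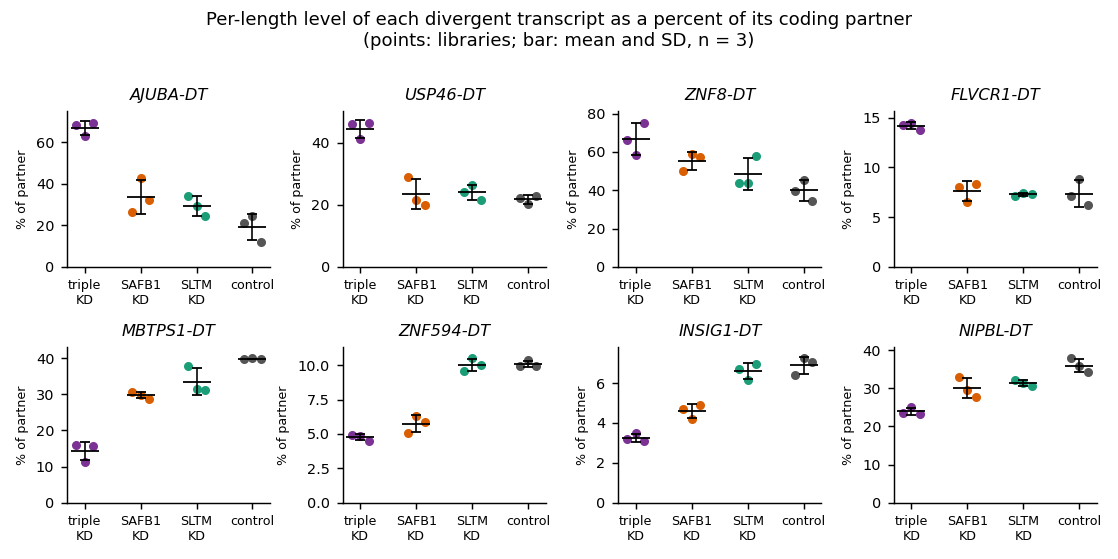
Per-length level of 8 divergent transcripts as a percent of their coding partners (vertical) in each library of triple KD, SAFB1 KD, SLTM KD and control, with the mean and SD (n = 3) as bars. The upper row holds 4 pairs whose ratio rose in triple KD and the lower row 4 whose ratio fell, such as MBTPS1-DT at 11.4% to 15.9% in triple KD and 39.7% to 39.9% in control.

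Ratios that fell in SAFB1 KD were led by ZNF594-DT (-0.82), LLPH-DT (-0.77), NUP50-DT (-0.69), ZNF691-DT (-0.61) and INSIG1-DT (-0.58). LLPH-DT stood at 43.2%, 50.8% and 42.5% of LLPH per length in SAFB1 KD, against 74.9%, 73.6% and 84.3% in control. LLPH itself was at 27.3 ± 1.01 CPM in SAFB1 KD and 25.8 ± 0.332 CPM in control (adjusted p = 0.234). The ratios that rose were those of AJUBA-DT (0.84) and ZNF8-DT (0.48). The calls of both rises were lost without SAFB1 KD replicate 2, at log2 ratio changes of 0.65 for AJUBA-DT and 0.44 for ZNF8-DT (adjusted p = 0.129 and 0.0892), and without control replicate 3, at 0.54 and 0.38 (0.194 and 0.175). That of ZNF8-DT was also lost without control replicate 1, at 0.48 (adjusted p = 0.05005). The count of falls was 8 without control replicate 2 or 3.

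In SLTM KD the ratio rose for TMEM167B-DT (0.37), CENATAC-DT (0.30) and ZNF584-DT (0.25) and fell for NIPBL-DT (-0.20). TMEM167B-DT stood at 28.8%, 34.1% and 31.3% of TMEM167B per length in SLTM KD, against 24.8%, 25.3% and 22.5% in control, with no overlap (adjusted p = 0.0175). These calls were lost when single libraries were left out, while the ratio changes stayed close in size. Without SLTM KD replicate 3 the changes were 0.37 for TMEM167B-DT, 0.34 for CENATAC-DT and 0.22 for ZNF584-DT (adjusted p = 0.0675, 0.0640 and 0.135), and without control replicate 3 they were 0.32, 0.28 and 0.21 (0.153, 0.182 and 0.185). Without SLTM KD replicate 2, 1 of the 3 was called. NIPBL-DT was not called without any 1 of the SLTM KD libraries or control replicates 1 or 2, at -0.22 to -0.16 and an adjusted p of 0.0550 to 0.237.

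The purine word GAAGAA was counted in the longest GENCODE v44 transcript of each gene, since SAFB proteins prefer such RNA. It occurred at least once in 97 of 141 members (68.8%), 63.3% of the other lncRNA genes and 84.7% of the protein-coding genes averaging 1 CPM or more. Among members that rose in triple KD 20 of 21 held it, at a median of 1.02 per kb. It was present in 35 of the 51 that fell (median 0.447 per kb) and in 42 of the 69 not called (0.404 per kb). Among the other lncRNA genes the word was in 60.4% of those that rose, 64.7% of those that fell and 63.9% of those not called. Median transcript lengths of the members were 2659 bases for those that rose, 2283 for those that fell and 2467 for the rest. With the transcripts of a set pooled, the gap was smaller, at 0.714, 0.557 and 0.490 per kb in the same order. Pooled rates of the other lncRNA genes were 0.550, 0.521 and 0.575 per kb. Single members varied within each direction. Of those that rose, AJUBA-DT held 3 copies in 1021 bases, USP46-DT 2 in 1048 and ZNF8-DT 1 in 2730. Of those that fell, NIPBL-DT held 3 in 5337 and HK2-DT and NUP50-DT none. A match in letters is a description and says nothing of binding. In the promoter windows GAAGAA was found on either strand in 8.85% of members and 20.0% of all windows. Partners gave 15% and protein-coding genes averaging 1 CPM or more 15.2%.

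The machinery that limits divergent transcription was followed as a list of 59 genes, all tested. In triple KD 19 of them (32.2%) rose and 24 (40.7%) fell, near the 30.1% and 35.2% of all genes averaging 1 CPM or more, with a median log2 fold change of -0.00635, against -0.00436 over all genes tested. Of the 13 nuclear exosome genes 7 fell and 2 rose, and of the NEXT adaptor 2 of 3 fell and 1 rose. PAXT had 2 falls and 2 rises among 5 genes, Integrator 5 falls and 4 rises among 14, cap-binding and ARS2 genes 3 falls and 1 rise among 5, U1 snRNP genes 2 falls and 1 rise among 6, and early 3′ end formation genes, the endonuclease CPSF3 among them, 3 falls and 6 rises among 11. Both Restrictor genes rose. The 4 with the smallest adjusted p were CPSF1, a cleavage and polyadenylation subunit (log2 fold change 0.34), and the Integrator subunits INTS9 (0.45), INTS14 (0.28) and INTS2 (-0.34). In SAFB1 KD 7 of the 59 (11.9%) rose and 5 (8.47%) fell, where 9.24% and 8.11% of genes averaging 1 CPM or more did. In SLTM KD 3 (5.08%) rose and 8 (13.6%) fell, where 6.2% and 10.4% did. Their part in the changes of the members was not tested.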

How the data were processed

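Polyadenylated RNA of 12 HEK293 libraries, 3 per group, was analysed. The authors trimmed the stranded reads with cutadapt, aligned them to GRCh38 with STAR 2.7.9a and deposited whole-number read counts per GENCODE v29 gene, taken for the reverse strand and not normalized. Genes whose counts over the 12 libraries came to 10 or more were fitted together by edgeR 4.0.16 (quasi-likelihood F test, TMM factors, group as the only term) in R 4.3.3, and a two-sided Benjamini-Hochberg adjusted p under 0.05 was a call. Levels are TMM-adjusted CPM. Pair ratios were log2 of both counts plus 0.5, fitted by limma 3.58.1. Names, biotypes and lengths came from GENCODE v44, and windows from RefSeq. Alternatives were DESeq2 1.42.0, limma-voom, other scalings, filters and limits, a replicate block, fits of the compared groups alone and leaving out each library. Limma-voom for the medians was added after seeing the data. The fits were tested on simulated data. CPSF3, which the gene list held under Integrator, was counted with the 3′ end formation genes. The members and all gene lists were chosen with earlier results of these data known. Named were the 10 most abundant members, up to 8 called members without overlap per direction in each comparison against control, up to 5 per direction in the ratio fit and the 4 list genes with the smallest adjusted p. Some results that this rule names are not reported here.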

Additional observations from a re-analysis of the deposited data

How the results depend on the processing

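The 141 members gave 21 rises and 51 falls in triple KD against control, and leaving out any 1 library gave 19 to 21 and 45 to 51. Counts with fewer calls moved more. Over the fits that left out 1 library, rises in SAFB1 KD numbered 2 to 5, rises in SLTM KD 3 to 6 and falls in SLTM KD 0 to 1. Partners that rose in SAFB1 KD numbered 9 to 17, partners that fell in it 6 to 11 and partners that rose in SLTM KD 5 to 9. Pair ratios that rose in SAFB1 KD numbered 0 to 2, ratios that fell in it 8 to 14, ratios that rose in SLTM KD 0 to 4 and ratios that fell in it 0 to 1. Falls in SLTM KD numbered 0 with DESeq2, 0 with limma-voom, 2 without the filter and 2 with the replicate block. With a limit of 2 CPM, 0% of the members fell in SLTM KD and 2.3% were higher in SAFB1 KD than in SLTM KD. The median log2 fold change of the partners in SLTM KD was 0.007 under upper-quartile scaling, against -0.012, and the cause was not tested.

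Of 57 named results 41 kept their direction and call in every alternative run, 16 lost the call in at least 1 and 0 reversed. The labels do not say that equal replicate numbers mark a shared culture or day. Deviations of same-numbered libraries correlated at -0.025 to 0.139, with 1 of 18 pairs over 0.1, and 11 of 12 libraries correlated best with one of their own number. With the replicate block, 21 members rose and 51 fell in triple KD and 21 fell in SAFB1 KD. Low counts limit members such as AJUBA-DT, which had 28 to 55 counts in control.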
